A study of Danio rerio with 21 samples.

Results

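MHet larvae of the *pomgnt2* zebrafish line were compared with Het larvae at 5 dpf (days post fertilization). Larvae of both groups carried the same own genotype, *pomgnt2* +/-, and their mothers differed: MHet larvae were progeny of ZKO (*pomgnt2* -/-) females and Het males (KOxHet crosses), whereas Het larvae were progeny of Het females and Het males (HetxHet crosses). The groups were chosen by these labels, which gave 6 of the 21 samples of the series, 3 MHet pools and 3 Het pools, each a pool of 4 to 6 whole larvae from which polyadenylated RNA was sequenced. The other samples at 5 dpf were 3 pools each of MZKO larvae (own genotype -/-, from the same crosses as MHet), and of ZKO (-/-) and WT (+/+) larvae (from the same crosses as Het), and 6 samples were from 10 dpf. All larvae were of the EK strain and of the line with frameshift mutations in both coding exons of *pomgnt2*. Those of the 5 dpf pools were genotyped alive at 4 dpf and frozen at 5 dpf. The study refers to the libraries of that age as 1 experiment, and the sample titles name no batch. The hour of freezing and the number of clutches behind each cross are not given in the sources used here, so the genotype of the mother cannot be told apart from cross, clutch and time of collection in any comparison below. The labels do not say whether pools of 1 group came from separate clutches, so p-values measure only the spread between these pools.

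*pomgnt2* encodes an enzyme of the endoplasmic reticulum that extends the O-mannose glycan of alpha-dystroglycan, on which matriglycan, the sugar chain that binds laminin, is later built. A zebrafish embryo starts with RNA and protein that its mother laid down in the egg, so a +/- larva of a -/- mother differs from a +/- larva of a +/- mother in what it received before its own genome was active. Several of the genes described first belong to the circadian clock, in which Clock and Bmal proteins switch on the *per* and *cry* genes, the Per and Cry proteins repress Clock and Bmal in turn, and Rev-erb and Ror receptors set the level of *bmal*. In zebrafish larvae this clock runs in most tissues and responds directly to light.

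Counted reads at 5 dpf came to 17826389 to 22439739 per pool, 19970436 to 22439739 in MHet and 18931315 to 20018975 in Het. Levels are given as CPM, counts per 1000000 of the TMM-scaled library size, and 3 counts, taken as the floor, corresponded to 0.137 to 0.152 CPM in the MHet pools and 0.151 to 0.162 CPM in the Het pools. Intervals and floors cover counting error only. A DEG (differentially expressed gene) had a Benjamini-Hochberg adjusted p under 0.01 in edgeR's quasi-likelihood test and an absolute log2 fold change over 0.7, and ± after a fold change is its standard error. Mitochondrially encoded genes took 1.95% to 2.33% of the counts in MHet and 2.63% to 2.78% in Het, and the 10 most abundant genes took 12.3% to 13.0% and 11.6% to 12.0%. Of 25 lists of cell type markers checked, from muscle and liver to lens and pigment cells, no marker present in the counts was without reads in these 6 pools. Of 5 heart markers listed, 4 were present in the counts. In the first principal component, which held 29.0% of the variance, the 6 pools from KOxHet crosses lay between 34.7 and 46.3 and the 9 pools from HetxHet crosses between -35.5 and -17.2. Component number 3 (9.04%) set MHet (21.7 to 38.4) apart from MZKO (-26.3 to -25.0).

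**Figure D1:**
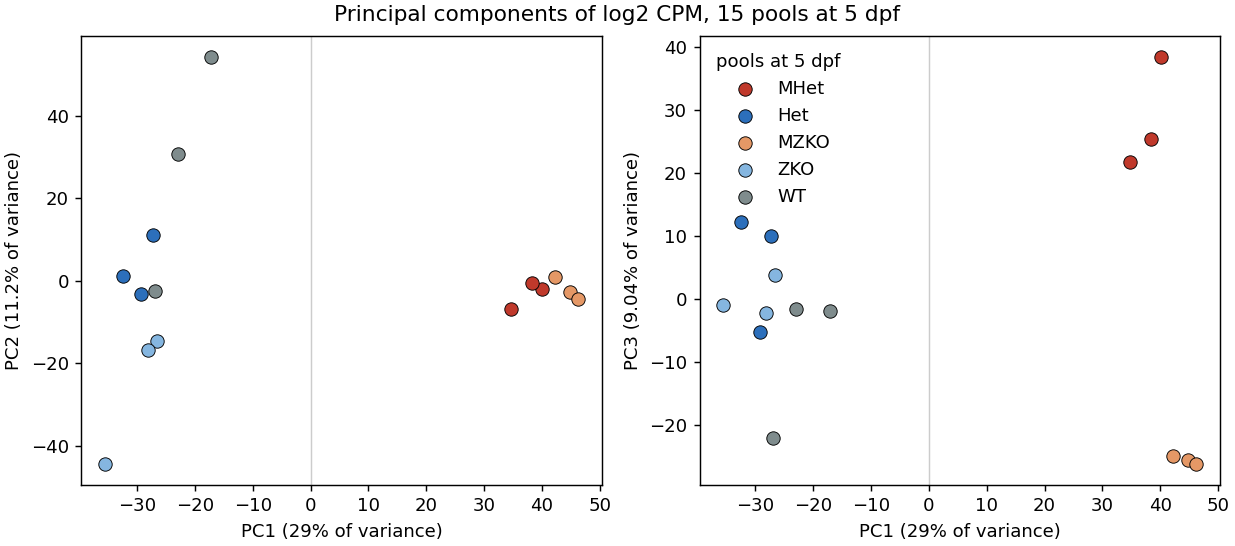
Principal components of log2 CPM over the 15 pools at 5 dpf, 1 point per pool, coloured by group, with component 1 on both x axes and component 2 (left) or 3 (right) on the y axes. MHet and MZKO pools lie right of 0 and Het, ZKO and WT pools left of 0 on the first component, and MHet lies apart from MZKO on component 3.

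*pomgnt2* itself had 14.4, 14.5 and 18.1 CPM in the MHet pools, against 17.0, 18.1 and 17.5 CPM in the Het pools (log2 fold change -0.16 ± 0.11 SE, adjusted p = 0.355). The pools of both groups overlapped, and MZKO, ZKO and WT pools averaged 19.0 ± 0.166, 18.7 ± 1.14 and 17.6 ± 0.836 CPM (SD, n = 3 each). Counts over the gene do not tell the frameshift alleles from the intact one, so these levels check no label.

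Of 24846 genes tested, 462 were higher and 479 lower in MHet than in Het, together 941 or 3.79% of the genes tested (1.86% higher and 1.93% lower). The median log2 fold change was 1.01 among the higher DEGs and -1.01 among the lower ones, and over all genes tested it was -0.0020. Of the DEGs, 57 were higher and 37 lower by more than 2 on the log2 scale. In 461 of the higher and 478 of the lower DEGs the MHet and Het pools did not overlap in CPM, which 36.8% of all genes tested also showed. The MHet pools lay outside the range of all 9 pools from Het females, WT and ZKO included, in 394 of the higher and 425 of the lower DEGs, against 16.0% of all genes tested. Since MHet and Het pools also chose the DEGs, both excesses over all genes follow in part from that choice. The same goes for single DEGs described below as having separate pools, which adds no support to their calls. DESeq2 called 451 of these higher and 474 of these lower DEGs. For comparison, 0 genes passed the same thresholds between Het and WT, groups from the same kind of cross that differ in their own genotype, with edgeR or with DESeq2, where 2986 genes had an unadjusted p under 0.05 in edgeR, against 7402 between MHet and Het. Without WT pool 3, which lay at -2.50 on the second principal component where the other WT pools lay at 30.9 and 54.4, Het against WT gave 1 higher and 44 lower DEGs. Het pools serve in both of these comparisons.

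Genes of the circadian clock stood among the DEGs with the smallest p. Of 45 clock genes tested in 5 lists, 3 were higher and 18 lower in MHet, and their median log2 fold change was -0.16. Over all genes tested, 1.86% were higher and 1.93% lower. Of the DEGs in these lists, all 21 had MHet and MZKO pools outside the range of the 9 pools from Het females. The same held for 7.8% of all genes tested, and for 300 of the 462 higher and 323 of the 479 lower DEGs. MHet and Het pools, which chose the DEGs, are part of these counts. The repressor genes *nr1d1*, *per1a* and *per1b* were lower, whereas *cry1bb* was higher.

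Among the Period genes, 3 of 4 were lower. *per1b*, a core repressor of Clock and Bmal, had 42.3, 41.4 and 34.8 CPM in the MHet pools, against 157, 149.7 and 158 CPM in the Het pools (log2 fold change -1.97 ± 0.08 SE, adjusted p = 9.24e-14). *per1a*, its paralog, had 8.83, 8.59 and 6.62 CPM in the MHet pools, against 40.9, 37.0 and 38.5 CPM in the Het pools (log2 fold change -2.27 ± 0.14 SE, adjusted p = 8.75e-11). Each MHet pool of both genes lay under the lowest Het pool by a factor of more than 3. *per3* had 142, 130.3 and 129.9 CPM in the MHet pools, against 211, 217 and 227 CPM in the Het pools (log2 fold change -0.70 ± 0.09 SE, adjusted p = 8.15e-06). *per2*, which in zebrafish is induced by light, had 154, 126 and 130.4 CPM in the MHet pools, against 169.9, 167 and 149 CPM in the Het pools (log2 fold change -0.25 ± 0.09 SE, adjusted p = 0.0556) and was no DEG. Of 6 cryptochromes, 1 was higher and 2 lower. *cry1bb* had 190.3, 158 and 174 CPM in the MHet pools, against 42.0, 41.1 and 42.6 CPM in the Het pools (log2 fold change 2.05 ± 0.10 SE, adjusted p = 3.92e-13). Its level in the lowest MHet pool was over 3 times that of the highest Het pool, the opposite direction to *cry1ab* (-1.08 ± 0.11, adjusted p = 2.19e-07) and *cry2* (-1.12 ± 0.09, adjusted p = 9.82e-09). The light-induced *cry1aa* (log2 fold change -0.13 ± 0.07 SE, adjusted p = 0.231) and *cry4* (log2 fold change 0.24 ± 0.11 SE, adjusted p = 0.128) passed neither threshold, and *cry1ba* (log2 fold change 0.58 ± 0.08 SE, adjusted p = 1.33e-05) passed that on p only. Thus members of 1 gene family moved in opposite directions.

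The Rev-erb genes, repressors of *bmal* transcription, gave the DEG with the smallest p of all. *nr1d1*, or Rev-erb alpha, had 23.9, 19.4 and 16.1 CPM in the MHet pools, against 149.7, 145 and 128 CPM in the Het pools (log2 fold change -2.83 ± 0.11 SE, adjusted p = 2.48e-14). *nr1d2a*, a Rev-erb beta gene, had 91.3, 92.9 and 80.6 CPM in the MHet pools, against 314, 287 and 271 CPM in the Het pools (log2 fold change -1.72 ± 0.11 SE, adjusted p = 7.45e-10). *nr1d2b* had 137, 131 and 138 CPM in the MHet pools, against 249.8, 257 and 281 CPM in the Het pools (log2 fold change -0.96 ± 0.08 SE, adjusted p = 1.30e-08). The lowest Het pool lay above the highest MHet pool in all 3. The remaining Rev-erb genes *nr1d4a* (log2 fold change 0.04 ± 0.22 SE, adjusted p = 0.933) and *nr1d4b* (log2 fold change 0.01 ± 0.20 SE, adjusted p = 0.982) had low levels and did not pass the test. Of 5 Ror genes, activators that bind the same elements, *rorcb* was higher at 110.5, 113 and 122 CPM in the MHet pools, against 65.9, 70.7 and 73.4 CPM in the Het pools (log2 fold change 0.72 ± 0.09 SE, adjusted p = 1.38e-05). For *rorca* the log2 fold change was 0.38, under the fold threshold, and for *roraa*, *rorab* and *rorb* it lay between -0.16 and 0.05. On the activating side of the loop, *arntl2*, a *bmal* gene, was the 1 DEG of 6 Clock and Bmal genes, with 19.8, 20.9 and 21.2 CPM in the MHet pools, against 10.6, 13.9 and 12.4 CPM in the Het pools (log2 fold change 0.75 ± 0.13 SE, adjusted p = 3.22e-04). *arntl1a*, *arntl1b* and *npas2* were above the Het pools in each MHet pool with log2 fold changes of 0.37 for *arntl1a*, 0.32 for *arntl1b* and 0.32 for *npas2*, and *clocka* and *clockb* were not called (0.23 and -0.10).

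Of 19 clock output genes, which carry the rhythm to other processes, 10 were lower and 0 higher. *ciarta*, which encodes a repressor of Clock and Bmal, had 20.9, 19.3 and 16.3 CPM in the MHet pools, against 74.4, 69.0 and 70.6 CPM in the Het pools (log2 fold change -1.92 ± 0.09 SE, adjusted p = 3.92e-13). *ciartb*, its paralog, had 26.0, 24.9 and 22.3 CPM in the MHet pools, against 65.8, 64.0 and 63.0 CPM in the Het pools (log2 fold change -1.40 ± 0.08 SE, adjusted p = 4.78e-11). *dbpb*, a PAR bZIP activator of rhythmic genes, had 19.5, 17.5 and 17.6 CPM in the MHet pools, against 62.8, 55.9 and 56.3 CPM in the Het pools (log2 fold change -1.68 ± 0.11 SE, adjusted p = 3.03e-10). In the plot of clock gene levels these pools form separate groups. The other lower output genes were *dbpa* (-1.15 ± 0.09, adjusted p = 3.56e-09), *cipca* (-1.68 ± 0.15, adjusted p = 5.59e-08), *cipcb* (-1.06 ± 0.08, adjusted p = 3.56e-09), *nfil3-6* (-1.82 ± 0.18, adjusted p = 1.58e-05), *nocta* (-1.13 ± 0.13, adjusted p = 2.39e-06), *bhlhe41* (-0.90 ± 0.09, adjusted p = 3.63e-07) and *tefb* (-0.82 ± 0.08, adjusted p = 3.53e-07). Paralogs of several of them were not called, with log2 fold changes of -0.11 for *tefa*, 0.06 for *noctb*, -0.04 for *nfil3* and -0.04 for *nfil3-2*. *nfil3-5* lay the other way at 0.52, under the fold threshold, and *bhlhe40*, *hlfa* and *hlfb* at -0.55, -0.38 and -0.27 were not DEGs. *nfil3-3* stayed under 1 CPM in all 6 pools and was not called (log2 fold change -0.11 ± 0.62 SE, adjusted p = 0.932). In the melatonin pathway, *aanat2*, the rhythmic rate-limiting enzyme of the pineal gland, had 8.78, 5.23 and 6.00 CPM in the MHet pools, against 3.00, 2.86 and 2.71 CPM in the Het pools (log2 fold change 1.22 ± 0.28 SE, adjusted p = 0.00416), while *asmt*, which makes melatonin in the last step, had 4.55, 4.01 and 4.303 CPM in the MHet pools, against 8.63, 8.48 and 7.04 CPM in the Het pools (log2 fold change -0.91 ± 0.18 SE, adjusted p = 0.00113). These 2 enzymes thus changed in opposite directions. They were the only DEGs among 12 melatonin and pineal genes tested, a share of 16.7% beside 3.79% of all genes tested. Of the 12 genes, 9 lay below 0. WT pools had 5.20, 5.95 and 6.59 CPM of *asmt*, below every Het pool. Calls were lost for *per3* without MHet pool 2 or 3 or Het pool 3, *rorcb* without MHet pool 3 or Het pool 1, *arntl2* without Het pool 1 and *aanat2* without MHet pool 1 or any Het pool, and no other clock gene named lost its call when 1 pool was left out.

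**Figure D2:**
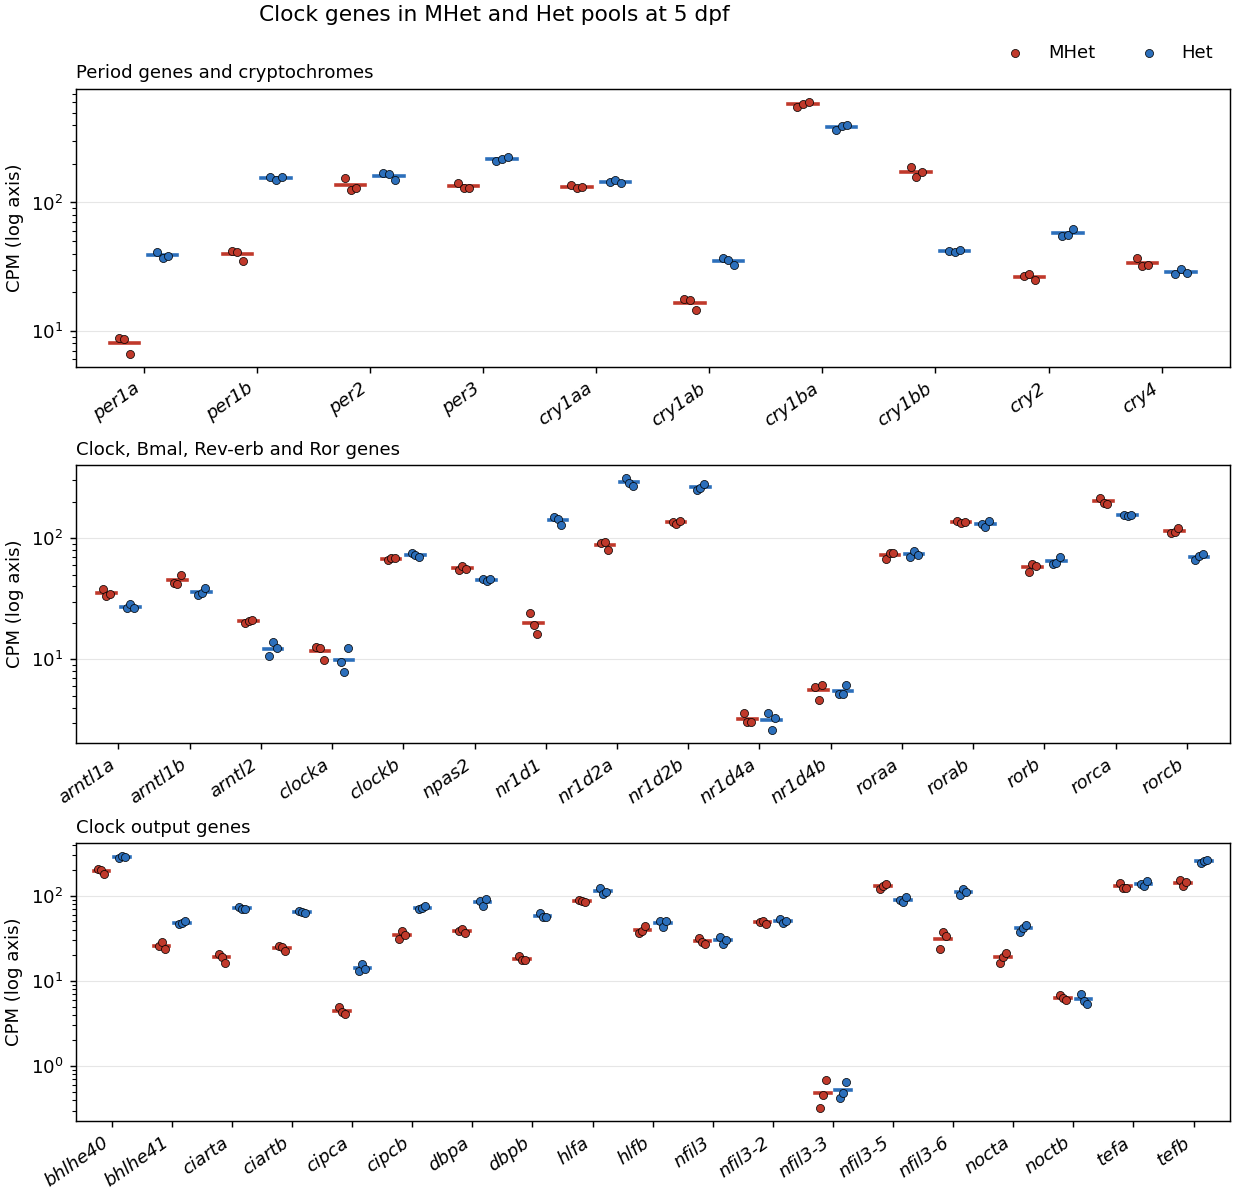
Levels of all 45 clock genes tested in CPM (log axis) in the 3 MHet pools (left of each pair) and the 3 Het pools (right), with points for pools and lines for group means. *nr1d1*, *nr1d2a*, *nr1d2b*, both *per1* genes and most output genes lie lower in MHet, *nr1d4a* and *nr1d4b* lie level, whereas *cry1bb*, *arntl2* and *rorcb* lie higher.

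Of 16 genes of the glucocorticoid axis tested, which serves the stress hormone cortisol and its receptor, 0 were higher and 4 lower in MHet, *per1a* among them. This was a share of 25.0%, beside 3.79% of all genes tested. *klf9*, a transcription factor induced by glucocorticoids, had 23.4, 22.4 and 24.5 CPM in the MHet pools, against 117, 90.7 and 90.5 CPM in the Het pools (log2 fold change -2.08 ± 0.23 SE, adjusted p = 1.11e-04). *fkbp5*, a cochaperone that limits the receptor, had 80.8, 94.1 and 93.8 CPM in the MHet pools, against 347, 315 and 285 CPM in the Het pools (log2 fold change -1.82 ± 0.18 SE, adjusted p = 2.33e-05). *hsd11b2*, which inactivates cortisol, had 11.3, 11.4 and 11.6 CPM in the MHet pools, against 22.5, 22.0 and 20.1 CPM in the Het pools (log2 fold change -0.91 ± 0.14 SE, adjusted p = 8.23e-05). The highest MHet pool stayed below the lowest Het pool in each. Immediate early genes, which respond within minutes to signals, gave 2 higher and 5 lower DEGs among 32 tested members (median log2 fold change -0.21), a share of 21.9%. *fosaa* had 16.8, 16.1 and 16.8 CPM in the MHet pools, against 36.8, 43.9 and 44.5 CPM in the Het pools (log2 fold change -1.33 ± 0.12 SE, adjusted p = 2.98e-08). *mycb* had 33.2, 33.0 and 31.8 CPM in the MHet pools, against 68.7, 61.6 and 64.2 CPM in the Het pools (log2 fold change -0.99 ± 0.11 SE, adjusted p = 2.57e-06). Both transcription factor genes were lower in every MHet pool than in any Het pool. The count of the list was 4 without Het pool 3. *klf2b*, a factor known for its response to blood flow in endothelium, was higher, with 49.7, 55.7 and 62.7 CPM in the MHet pools, against 21.5, 23.6 and 26.5 CPM in the Het pools (log2 fold change 1.23 ± 0.14 SE, adjusted p = 1.16e-05). *cdkn1a*, an inhibitor of the cell cycle, was the 1 DEG of 52 replication and cell cycle genes, with 6.64, 6.81 and 6.53 CPM in the MHet pools, against 16.3, 17.7 and 15.6 CPM in the Het pools (log2 fold change -1.31 ± 0.14 SE, adjusted p = 4.80e-07). The share called in that list, 1.92%, lay below the 3.79% of all genes tested.

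Genes of the eye differed in both directions. Lens genes held only lower DEGs: the crystallins, the refractive proteins of lens fibres, gave 0 higher and 10 lower DEGs among 49 tested members (median log2 fold change -0.54), of which 45 lay below 0, and other lens genes gave 0 higher and 10 lower DEGs among 18 tested members (median log2 fold change -0.80). The shares called were 20.4% of the crystallins and 55.6% of the other lens genes, beside 3.79% of all genes tested. *cryaa*, or alpha A crystallin, a small heat shock protein of the lens, had 30.0, 25.5 and 26.2 CPM in the MHet pools, against 84.6, 74.1 and 65.9 CPM in the Het pools (log2 fold change -1.46 ± 0.11 SE, adjusted p = 5.50e-09). *crygm2d15*, a gamma M crystallin, had 238, 219 and 199 CPM in the MHet pools, against 370.3, 407 and 429 CPM in the Het pools (log2 fold change -0.88 ± 0.10 SE, adjusted p = 3.18e-06). *mipa*, a water channel of lens fibres, had 54.4, 42.4 and 57.2 CPM in the MHet pools, against 123, 120.2 and 103 CPM in the Het pools (log2 fold change -1.17 ± 0.15 SE, adjusted p = 1.42e-04). None of these MHet pools reached the lowest Het pool. Further lower lens genes were *crybb1l2* (-0.72 ± 0.11, adjusted p = 1.54e-04), *cryba1l2* (-1.14 ± 0.17, adjusted p = 1.19e-04), *lim2.4* (-0.95 ± 0.12, adjusted p = 1.91e-05), *bfsp2* (-0.86 ± 0.12, adjusted p = 6.11e-05) and *grifin* (-0.90 ± 0.16, adjusted p = 4.43e-04). Gamma crystallins lie in near-identical copies, and how the counting treated reads that map to several places is not stated, so levels of single copies are uncertain. The 6 lens markers summed to 1121 to 1381 CPM in the MHet pools, against 1726 to 2224 CPM in the Het pools, and all of them are members of these lists. In RNA from whole larvae, fewer cells of a type and less RNA per cell cannot be told apart, here and for the pigment, cartilage and ionocyte genes below. What part the levels of such markers have in the results was not tested, here and below. Both counts moved with single pools: the crystallins had 6 DEGs without MHet pool 3 or without Het pool 2, against 10 with all pools, and 14 without Het pool 3. The other lens genes had 5 without MHet pool 2 and 6 without Het pool 2, against 10. Of the lens genes with values here, *crybb1l2* alone lost its call, without MHet pool 2, MHet pool 3 or Het pool 1.

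Opsins and phototransduction genes gave 5 higher and 10 lower DEGs among 59 tested members (median log2 fold change -0.06). The share called was 25.4%, beside 3.79% of all genes tested. *opn1lw2*, a red cone opsin, had 467, 509 and 554 CPM in the MHet pools, against 1714, 1654 and 1501 CPM in the Het pools (log2 fold change -1.67 ± 0.09 SE, adjusted p = 3.72e-12). *opn1mw1*, a green cone opsin, had 344, 385 and 414 CPM in the MHet pools, against 976, 1123 and 972 CPM in the Het pools (log2 fold change -1.43 ± 0.12 SE, adjusted p = 2.98e-08). *rdh8b*, a retinol dehydrogenase, had 11.1, 12.5 and 10.15 CPM in the MHet pools, against 27.9, 26.9 and 25.3 CPM in the Het pools (log2 fold change -1.25 ± 0.12 SE, adjusted p = 8.72e-08). The Het level of both opsins was over 2 times the MHet level in every pairing of pools. *arr3a*, the cone arrestin that shuts opsin signalling off, had 911, 795 and 769 CPM in the MHet pools, against 417, 422 and 388 CPM in the Het pools (log2 fold change 1.01 ± 0.09 SE, adjusted p = 2.93e-08). The arrestin was thus higher where these opsins were lower, in RNA from whole larvae that does not separate cells. The cone opsins *opn1lw1* and *opn1sw1* were not called. The inhibitory subunits of cone phosphodiesterase *pde6h* (log2 fold change 1.27) and *pde6ha* (1.35) rose too, and the pigment epithelium genes *rpe65a* (0.82) and *rdh5* (0.72) completed the 5 higher members, which were named after their values were seen. Leaving out MHet pool 1 or Het pool 3 ended the call of *rdh5*. Of the 7 cone markers, 2 were higher and 2 lower, and their sum was 4095 to 4224 CPM in the MHet pools, against 5167 to 5769 CPM in the Het pools, while the 4 rod markers held no DEG and summed to 2303 to 2597 CPM in the MHet pools, against 1913 to 2454 CPM in the Het pools. The opsin gene families hold tandem copies, so the caution on copies applies to them as well.

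Pigment cell genes that were called were mostly lower, with 1 higher and 8 lower DEGs among 32 tested members (median log2 fold change -0.31). The share called was 28.1%, beside 3.79% of all genes tested. *gch2*, GTP cyclohydrolase, the first step of pteridine synthesis in yellow pigment cells, had 18.7, 14.8 and 12.5 CPM in the MHet pools, against 63.1, 52.5 and 54.8 CPM in the Het pools (log2 fold change -1.89 ± 0.16 SE, adjusted p = 8.19e-07). *qdpra*, a dihydropteridine reductase, had 24.8, 27.1 and 27.6 CPM in the MHet pools, against 59.13, 61.1 and 59.6 CPM in the Het pools (log2 fold change -1.18 ± 0.10 SE, adjusted p = 2.20e-08). The MHet pools lay under the lowest Het pool by a factor of more than 2 in both. *pnp5a*, a purine nucleoside phosphorylase, had 77.0, 93.0 and 99.1 CPM in the MHet pools, against 190.4, 159.6 and 212 CPM in the Het pools (log2 fold change -1.06 ± 0.12 SE, adjusted p = 4.22e-06). *oca2*, a melanosome protein needed for melanin, had 10.1, 12.5 and 11.7 CPM in the MHet pools, against 24.1, 19.1 and 22.8 CPM in the Het pools (log2 fold change -0.94 ± 0.13 SE, adjusted p = 2.49e-05). The groups did not overlap in any of these 4 genes, as in nearly all DEGs. Markers of melanophores summed to 292 to 331 CPM in the MHet pools, against 419 to 486 CPM in the Het pools, with 2 of 5 lower. Those of xanthophores summed to 40.2 to 63.1 CPM in the MHet pools, against 86.0 to 108 CPM in the Het pools, with 1 of 3 lower, and those of iridophores to 64.1 to 77.5 CPM in the MHet pools, against 60.6 to 67.3 CPM in the Het pools, with 0 of 3 called.

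Collagens gave 0 higher and 10 lower DEGs among 56 tested members (median log2 fold change -0.35), and 50 of the members lay below 0. The share called was 17.9%, beside 3.79% of all genes tested. *col24a1*, a fibrillar collagen, had 31.6, 45.7 and 40.9 CPM in the MHet pools, against 73.5, 73.2 and 81.2 CPM in the Het pools (log2 fold change -0.95 ± 0.12 SE, adjusted p = 3.17e-05). *col9a1a*, a cartilage collagen, had 41.0, 49.8 and 47.4 CPM in the MHet pools, against 93.2, 93.7 and 72.5 CPM in the Het pools (log2 fold change -0.91 ± 0.12 SE, adjusted p = 3.03e-05). Both genes had their lowest level in MHet pool 1. *col9a3*, another chain of collagen IX, had 113, 139 and 118 CPM in the MHet pools, against 218, 231 and 193 CPM in the Het pools (log2 fold change -0.79 ± 0.11 SE, adjusted p = 6.11e-05). *col11a1a*, a chain of collagen XI, had 248, 315 and 274 CPM in the MHet pools, against 473, 456 and 440.1 CPM in the Het pools (log2 fold change -0.71 ± 0.11 SE, adjusted p = 8.72e-05). The groups were separate for each of these chains, as in nearly all DEGs. The notochord and cartilage markers had 4 of 6 lower (*acana*, *cnmd*, *col9a1a* and *epyc*) and summed to 696 to 836 CPM in the MHet pools, against 991 to 1348 CPM in the Het pools. The count of collagen DEGs was 4 without MHet pool 1 and 4 without Het pool 1, against 10 with all pools, and *col11a1a* lost its call without MHet pool 1, MHet pool 3 or Het pool 1. Laminins and integrins, among them the basement membrane partners of dystroglycan, held 0 DEGs of 42 (median -0.04), with 16 at an unadjusted p under 0.05, 1 called by DESeq2 and 2 called without Het pool 2.

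Ionocyte and kidney transporters, which take up salts across skin and pronephros, gave 9 higher and 4 lower DEGs among 47 tested members (median log2 fold change 0.29). The share called was 27.7%, beside 3.79% of all genes tested. *slc12a3*, a sodium chloride cotransporter, had 42.8, 42.5 and 42.0 CPM in the MHet pools, against 16.0, 18.5 and 16.1 CPM in the Het pools (log2 fold change 1.33 ± 0.10 SE, adjusted p = 5.18e-09). *atp1a1a.5*, a sodium pump subunit, had 17.5, 18.8 and 16.9 CPM in the MHet pools, against 6.52, 5.08 and 3.47 CPM in the Het pools (log2 fold change 1.82 ± 0.22 SE, adjusted p = 9.67e-06). *kcnj1a.6*, a potassium channel, had 19.1, 13.6 and 13.5 CPM in the MHet pools, against 6.84, 6.76 and 6.33 CPM in the Het pools (log2 fold change 1.21 ± 0.17 SE, adjusted p = 3.74e-05). Each was higher in every MHet pool than in any Het pool. The anion exchanger *slc4a2a*, outside this list, had 40.5, 36.5 and 39.2 CPM in the MHet pools, against 15.2, 14.0 and 12.2 CPM in the Het pools (log2 fold change 1.49 ± 0.13 SE, adjusted p = 2.66e-08). *slc8a1b*, a sodium calcium exchanger, was lower (-0.72 ± 0.09, adjusted p = 4.22e-06), a call that ended without MHet pool 1 or Het pool 2. The largest change of the list was that of *rhcga*, an ammonium transporter, named after its values were seen, with 4.78, 2.54 and 4.25 CPM in the MHet pools, against 55.9, 34.6 and 44.7 CPM in the Het pools (log2 fold change -3.54 ± 0.33 SE, adjusted p = 4.34e-05). The 5 ionocyte markers summed to 205 to 220.2 CPM in the MHet pools, against 194 to 208 CPM in the Het pools, and only *trpv6*, the calcium channel, was called among them, lower in MHet at -0.77, a call that ended without MHet pool 1 or 2 or Het pool 1 or 3. The list had 8 DEGs without MHet pool 1, against 13 with all pools. The *kcnj1a* and *atp1a1a* genes are tandem copies, so the split of reads between them is uncertain.

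Genes of vitamin D metabolism changed at 3 steps of 15 genes tested, a share of 20.0% beside 3.79% of all genes tested. *cyp27b1*, which makes the active hormone, had 3.50, 1.98 and 6.53 CPM in the MHet pools, against 25.0, 25.7 and 29.0 CPM in the Het pools (log2 fold change -2.73 ± 0.42 SE, adjusted p = 0.0014). *cyp2r1*, the 25-hydroxylase before it, had 3.96, 2.49 and 4.303 CPM in the MHet pools, against 10.6, 7.35 and 8.65 CPM in the Het pools (log2 fold change -1.30 ± 0.30 SE, adjusted p = 0.00606). *cyp24a1*, which degrades the hormone, had 63.2, 75.8 and 51.0 CPM in the MHet pools, against 15.8, 10.1 and 10.6 CPM in the Het pools (log2 fold change 2.38 ± 0.39 SE, adjusted p = 0.00221). Both activating enzymes were lower and the degrading enzyme was higher, with no overlap of MHet and Het pools. MZKO against ZKO gave log2 fold changes of -3.19, -2.11 and 2.34 for these 3 genes. For *cyp2r1* the ZKO pools, from the same crosses as Het, had 4.61, 6.89 and 3.84 CPM and overlapped the MHet pools. Levels of *cyp27b1* varied among progeny of Het females, with 19.1, 19.5 and 12.9 CPM in ZKO and 70.4, 31.8 and 32.5 CPM in WT. The calls were lost for *cyp27b1* without MHet pool 1, *cyp2r1* without any MHet pool or Het pool 1 or 3 and *cyp24a1* without Het pool 2 or 3.

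In carbohydrate metabolism, glycolysis genes gave 3 higher and 1 lower DEGs among 42 tested members (median log2 fold change 0.03). This was a share of 9.52%, beside 3.79% of all genes tested. *gck*, the glucokinase of liver, had 32.1, 17.1 and 20.4 CPM in the MHet pools, against 3.63, 3.30 and 4.93 CPM in the Het pools (log2 fold change 2.55 ± 0.50 SE, adjusted p = 0.00553). *hk2*, hexokinase 2, had 17.1, 20.0 and 17.5 CPM in the MHet pools, against 8.21, 6.27 and 7.84 CPM in the Het pools (log2 fold change 1.29 ± 0.14 SE, adjusted p = 1.28e-06). *pfkfb4b*, which sets the level of a regulator of glycolysis, had 65.7, 69.4 and 70.2 CPM in the MHet pools, against 226, 204 and 203 CPM in the Het pools (log2 fold change -1.62 ± 0.10 SE, adjusted p = 1.35e-10). The MHet pools of *gck* varied widely, yet the lowest of them exceeded the highest Het pool by more than 3 times. *pfkfb3*, of the same enzyme family as *pfkfb4b*, had 77.4, 90.0 and 72.9 CPM in the MHet pools, against 51.6, 44.9 and 42.9 CPM in the Het pools (log2 fold change 0.79 ± 0.13 SE, adjusted p = 4.56e-04). Of 24 gluconeogenesis and glycogen genes only *fbp2* was called, lower with 6.14, 7.06 and 6.96 CPM in the MHet pools, against 14.5, 15.5 and 12.1 CPM in the Het pools (log2 fold change -1.06 ± 0.16 SE, adjusted p = 7.49e-05), and *g6pca.1*, glucose-6-phosphatase, was not (log2 fold change 0.16 ± 0.31 SE, adjusted p = 0.788). The share called in this list, 4.17%, was near the 3.79% of all genes tested. *rpe*, *taldo1* and *pgls* of the pentose phosphate pathway had log2 fold changes of 0.31 (not called), 0.74 and -0.87. *igfbp1b*, a binding protein that rises in fasting in fish and mammals, had 31.9, 31.6 and 22.8 CPM in the MHet pools, against 10.6, 7.40 and 5.38 CPM in the Het pools (log2 fold change 1.88 ± 0.37 SE, adjusted p = 0.0057). Again, calls were lost for *gck* without MHet pool 1 or 3 or any Het pool, *pfkfb3* without MHet pool 2, *taldo1* without MHet pool 1 or Het pool 3, *pgls* without MHet pool 1 or 3 or Het pool 3 and *igfbp1b* without MHet pool 1 or 2 or Het pool 2 or 3.

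All 19 mitochondrial chaperones and proteases tested had a log2 fold change above 0, with 6 higher and 0 lower DEGs among 19 tested members (median log2 fold change 0.57). The share called was 31.6%, beside 3.79% of all genes tested. *hspd1*, the mitochondrial chaperonin Hsp60, had 158, 150.2 and 152 CPM in the MHet pools, against 75.0, 76.4 and 66.6 CPM in the Het pools (log2 fold change 1.08 ± 0.11 SE, adjusted p = 1.45e-06). *clpxa*, an unfoldase of the matrix, had 140.3, 125 and 127 CPM in the MHet pools, against 78.0, 68.3 and 78.3 CPM in the Het pools (log2 fold change 0.80 ± 0.08 SE, adjusted p = 1.99e-07). *afg3l2*, a protease of the inner membrane, had 59.21, 52.5 and 57.3 CPM in the MHet pools, against 31.2, 31.8 and 28.6 CPM in the Het pools (log2 fold change 0.89 ± 0.10 SE, adjusted p = 1.45e-06). The MHet level of *hspd1* was about 2 times the Het level. ER chaperones gave 4 higher and 0 lower DEGs among 29 tested members (median log2 fold change 0.39), namely *hyou1* (0.90 ± 0.13, adjusted p = 4.89e-05), *hsp90b1* (0.74 ± 0.11, adjusted p = 3.94e-05), *manf* (0.92 ± 0.15, adjusted p = 2.27e-04) and *dnajc3a* (0.86 ± 0.16, adjusted p = 5.73e-04). The share called was 13.8%, beside 3.79% of all genes tested, and the list had 7 DEGs without MHet pool 1. Its members summed to 1507 to 1650 CPM in the MHet pools, 1245 to 1335 CPM in Het and 1365 to 1579 CPM in WT. For *dnajc3a*, WT pools 1 and 2 (13.0 and 13.2 CPM) lay above the lowest MHet pool (12.7 CPM). The MHet pools of *hyou1* and *hsp90b1* lay above all 9 pools from Het females. Proteasome subunits gave 3 higher and 0 lower DEGs among 50 tested members (median log2 fold change 0.41), a share of 6.00% beside 3.79% of all genes tested, and 45 of them lay above 0. Without Het pool 3 only 1 was called. *psmc3*, an ATPase of the proteasome cap, had 102, 100.04 and 93.7 CPM in the MHet pools, against 55.1, 55.5 and 55.3 CPM in the Het pools (log2 fold change 0.83 ± 0.09 SE, adjusted p = 6.88e-07). Cytosolic heat shock genes gave 2 higher and 0 lower DEGs among 43 tested members (median log2 fold change 0.08), a share of 4.65%, and 1 DEG without MHet pool 1, MHet pool 3, Het pool 1 or Het pool 2. The cytosolic chaperonin CCT held 0 DEGs of 8 (median 0.16) and ribosomal proteins 0 of 81 (median -0.03), with 3 and 1 genes at an unadjusted p under 0.05 and 0 called by DESeq2 in both. In the tricarboxylic acid cycle and respiratory chain, *sdha* and *sdhb*, both of succinate dehydrogenase, were higher at 0.90 ± 0.09, adjusted p = 3.30e-07, and 0.71 ± 0.09, adjusted p = 4.22e-06. The 12 mitochondrially encoded genes tested all lay below 0 (median -0.35), beside the lower share of these genes in the counts of the MHet pools given above, and *mt-atp8* was called (log2 fold change -0.91 ± 0.19 SE, adjusted p = 0.00416). Calls that needed single pools were lost for *hsp90b1* without Het pool 3, *sdhb* without MHet pool 1 or 2 or Het pool 3 and *mt-atp8* without MHet pool 1 or 2 or Het pool 1 or 2.

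**Figure D3:**
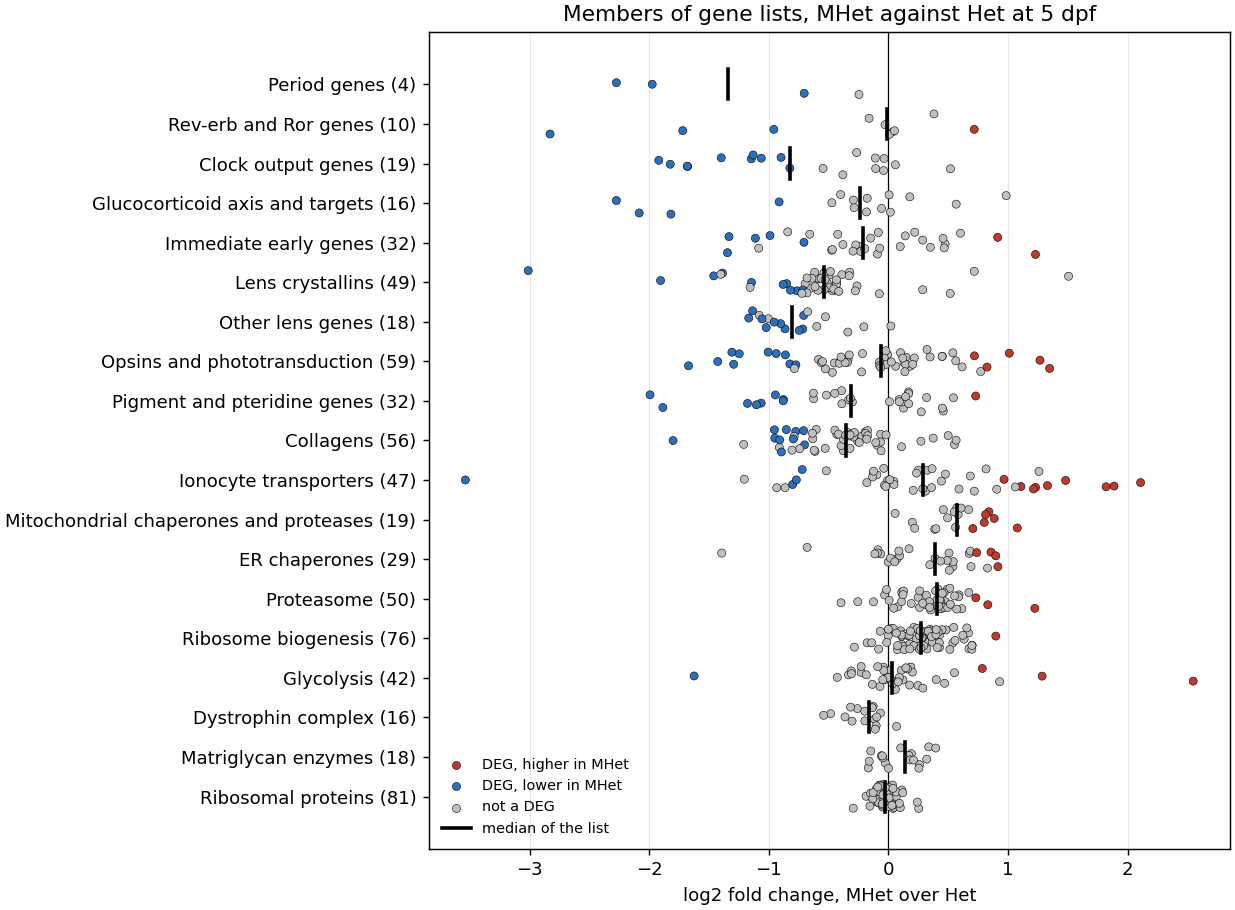
Log2 fold change of MHet over Het (x axis) for each tested member of 19 gene lists (rows, number of members in brackets), with DEGs coloured by direction, other members grey and a black bar at the list median. Period, lens and clock output members lie mostly left of 0, mitochondrial chaperones all right of 0, and ribosomal proteins close to 0.

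Lists chosen for the disease under study are small beside a share of 3.79% among all genes tested, so 0 DEGs in them says little. Matriglycan enzymes held 0 DEGs of 18 (median 0.14) and the dystrophin complex 0 of 16 (median -0.17) in edgeR and in DESeq2, with 1 and 6 genes at an unadjusted p under 0.05. *dag1*, which encodes dystroglycan, had 89.7, 90.7 and 86.9 CPM in the MHet pools, against 84.0, 86.3 and 84.7 CPM in the Het pools (log2 fold change 0.07 ± 0.07 SE, adjusted p = 0.581). Skeletal muscle contraction genes gave 0 higher and 4 lower DEGs among 82 tested members (median log2 fold change -0.07), a share of 4.88%, and 2 DEGs without MHet pool 1 or without Het pool 2. *acta1a*, a skeletal actin, had 107, 124 and 119.6 CPM in the MHet pools, against 208, 239 and 249 CPM in the Het pools (log2 fold change -0.99 ± 0.08 SE, adjusted p = 1.75e-08). The troponin I genes *tnni1c* (-0.78 ± 0.13, adjusted p = 1.51e-04) and *tnni1d* (-0.72 ± 0.13, adjusted p = 4.55e-04) were lower as well, whereas *tpm1* (log2 fold change -0.32 ± 0.10 SE, adjusted p = 0.0284), *tpm4b* (log2 fold change -0.59 ± 0.21 SE, adjusted p = 0.0577) and *tnni2b.1* (log2 fold change -0.69 ± 0.18 SE, adjusted p = 0.0186) did not pass the thresholds. Markers of fast muscle summed to 79419 to 87504 CPM in the MHet pools, against 74905 to 79421 CPM in the Het pools, with 0 of 9 called. Heart genes held 0 DEGs of 18 in edgeR and in DESeq2 (3 at an unadjusted p under 0.05), with *myl7*, a cardiac myosin light chain, at 6.96, 9.65 and 9.57 CPM in the MHet pools, against 11.8, 16.9 and 11.9 CPM in the Het pools (log2 fold change -0.63 ± 0.19 SE, adjusted p = 0.0268). *tnni1d* lost its call without MHet pool 1 or Het pool 2.

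Of 59 gene lists, 15 had no DEG, among them apolipoproteins, clotting factors, interferon response, myelin and jacalin genes, and the light-induced and photolyase genes. Apolipoproteins had 1 call in DESeq2, and 2 in edgeR without Het pool 3 or without MHet pool 2. Clotting factors had 2 calls in DESeq2, and light-induced and photolyase genes 1 in edgeR without Het pool 2. Myelin genes lay below 0 in 14 of 16 members, and light-induced and photolyase genes above 0 in 7 of 9. Digestive enzymes gave 0 higher and 1 lower DEGs among 29 tested members (median log2 fold change -0.75), and the exocrine pancreas markers, all of them members of this list, varied widely between pools, summing to 883 to 2203 CPM in the MHet pools, against 1606 to 4090.1 CPM in the Het pools. Ribosome biogenesis genes gave 2 higher and 0 lower DEGs among 76 tested members (median log2 fold change 0.28), of which 69 lay above 0 (when 1 pool was left out, from 1 DEG without MHet pool 2 to 6 without MHet pool 3), and nuclear genes of oxidative phosphorylation gave 2 higher and 0 lower DEGs among 89 tested members (median log2 fold change 0.10). Neuronal genes gave 0 higher and 1 lower DEGs among 30 tested members (median log2 fold change -0.29), of which 27 lay below 0. Without MHet pool 1 or without Het pool 3 these counts were 1 for oxidative phosphorylation and 0 for neuronal genes, and the neuronal genes had 3 without MHet pool 3. For oxidative phosphorylation the count was also 1 without MHet pool 2. With all pools, the shares called were 3.45% for digestive enzymes, 2.63% for ribosome biogenesis, 2.25% for oxidative phosphorylation and 3.33% for neuronal genes. All of these lay below the 3.79% called among all genes tested. No list not described here had more than 4 DEGs in either direction. Among liver genes, *hamp*, or hepcidin, the hormone that limits iron uptake, had 2.73, 2.39 and 5.03 CPM in the MHet pools, against 0.316, 0.648 and 0.503 CPM in the Het pools (log2 fold change 2.78 ± 0.52 SE, adjusted p = 8.70e-04). *rbp4*, the plasma carrier of retinol, had 1145, 1024 and 1097 CPM in the MHet pools, against 655, 602 and 585 CPM in the Het pools (log2 fold change 0.83 ± 0.09 SE, adjusted p = 1.03e-06). Of 22 hemoglobin and heme genes, *fech* and *ppox*, enzymes at the end of heme synthesis, were higher (1.105 and 1.26) and the globin *hbaa2* was lower (-3.05), at no more than 0.182 CPM in MHet and 1.16 CPM in Het. The 8 erythrocyte markers held 0 DEGs and summed to 2324 to 2602 CPM in the MHet pools, against 2055 to 2580.3 CPM in the Het pools. In immune genes, the collagenase *mmp13a* had 16.7, 11.9 and 12.2 CPM in the MHet pools, against 4.79, 5.40 and 6.58 CPM in the Het pools (log2 fold change 1.28 ± 0.21 SE, adjusted p = 1.92e-04), and *b2m*, the light chain of MHC class I, had 1.96, 1.07 and 1.60 CPM in the MHet pools, against 4.47, 3.46 and 3.97 CPM in the Het pools (log2 fold change -1.36 ± 0.27 SE, adjusted p = 9.92e-04). Inflammation genes gave 4 higher and 1 lower DEGs among 28 tested members (17.9%), and 2 to 4 DEGs when 1 pool was left out. MHC class I and antigen processing genes, *b2m* included, gave 0 higher and 2 lower among 21 (9.52%). Both shares stand beside 3.79% of all genes tested. The 5 macrophage markers held 0 DEGs and summed to 19.9 to 23.5 CPM in the MHet pools, against 25.1 to 31.4 CPM in the Het pools. The 4 neutrophil markers, of which *mmp13a* is 1, summed to 24.8 to 29.1 CPM in the MHet pools, against 23.2 to 26.0 CPM in the Het pools. This sum includes the rise of *mmp13a*, the only neutrophil marker called, and the median log2 fold change of the 4 was -0.44. The call of *hbaa2* without MHet pool 2 or 3 or Het pool 3 was lost.

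**Figure D4:**
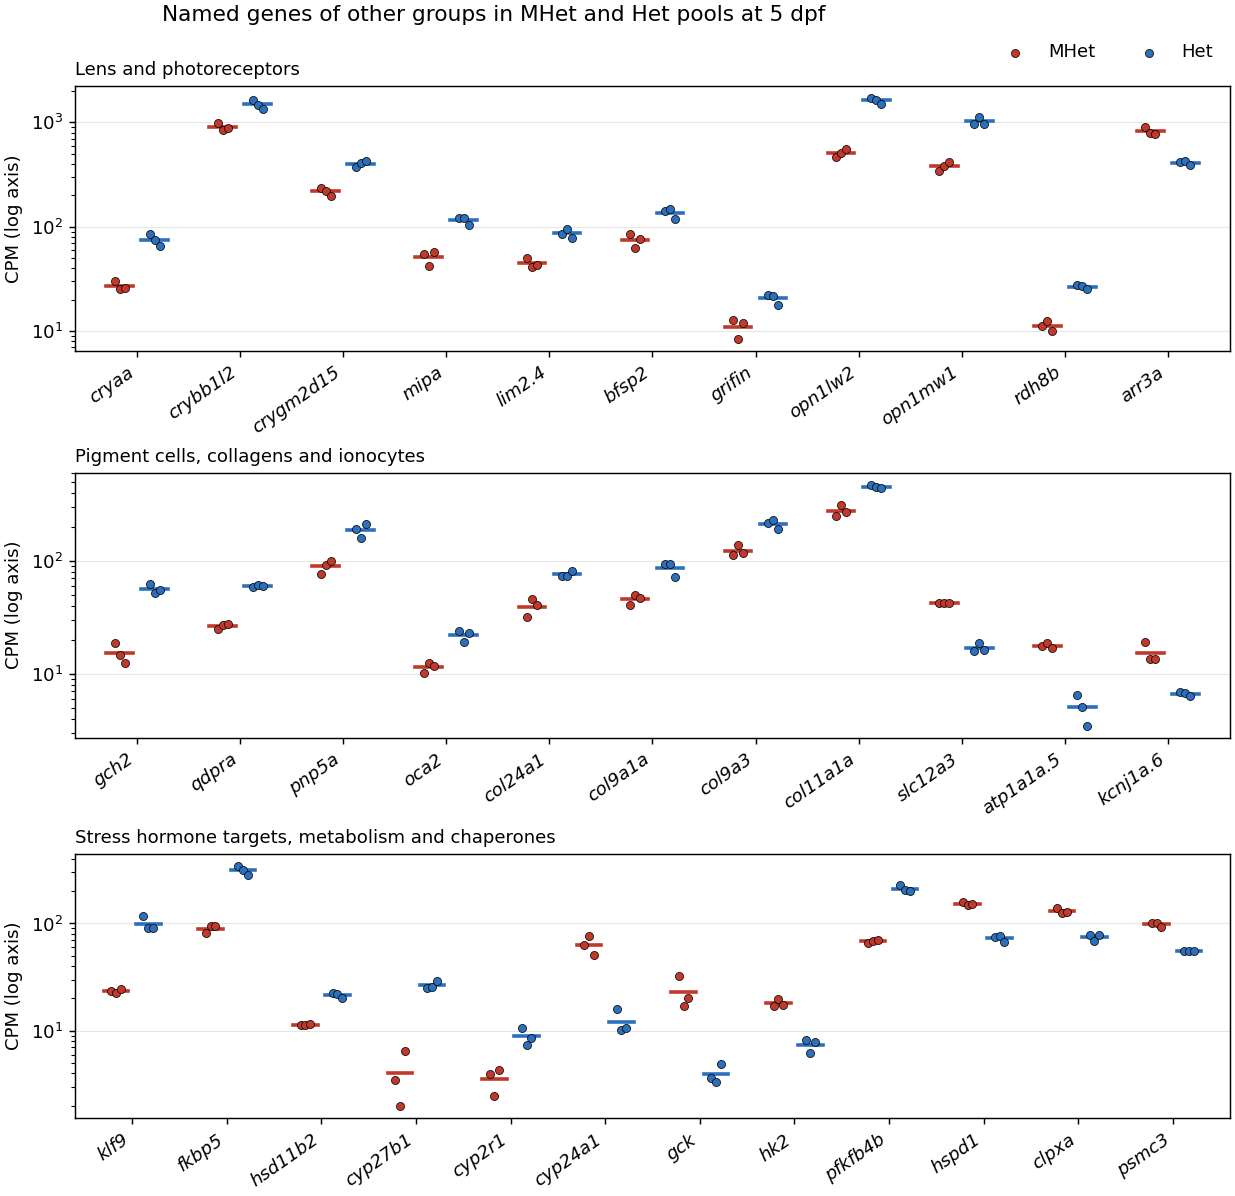
Levels in CPM (log axis) of named genes of the lens and photoreceptors (top), pigment cells, collagens and ionocytes (middle), and stress hormone targets, metabolism and chaperones (bottom) in the 3 MHet pools (left of each pair) and the 3 Het pools (right), with points for pools and lines for group means. Lens, opsin, pigment and collagen genes lie lower in MHet, and *arr3a*, the transporters, *cyp24a1*, *gck* and the chaperones lie higher.

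Outside the lists, the higher DEGs with the smallest p were led by *crtac1a*, named after a protein of cartilage matrix. *crtac1a* had 64.3, 51.1 and 41.9 CPM in the MHet pools, against 6.10, 5.84 and 6.64 CPM in the Het pools (log2 fold change 3.08 ± 0.14 SE, adjusted p = 3.77e-13). *ptgdsb.1*, a prostaglandin D synthase gene, had 538, 491 and 515 CPM in the MHet pools, against 156, 121 and 164 CPM in the Het pools (log2 fold change 1.81 ± 0.11 SE, adjusted p = 3.45e-10). *tspo*, a protein of the outer mitochondrial membrane, had 38.1, 35.7 and 32.8 CPM in the MHet pools, against 14.0, 15.6 and 13.7 CPM in the Het pools (log2 fold change 1.301 ± 0.11 SE, adjusted p = 2.35e-08). The lowest MHet pool exceeded the highest Het pool by more than 2 times in each. *tfap2c*, the transcription factor AP-2 gamma, had 65.3, 65.0 and 65.7 CPM in the MHet pools, against 30.9, 33.6 and 36.0 CPM in the Het pools (log2 fold change 0.96 ± 0.08 SE, adjusted p = 2.93e-08). *dhrs13a.1*, of the short-chain dehydrogenase family, had 30.5, 26.3 and 25.6 CPM in the MHet pools, against 9.57, 8.97 and 8.65 CPM in the Het pools (log2 fold change 1.60 ± 0.12 SE, adjusted p = 3.56e-09). Both kept the groups apart in every pool, which the rule that named genes of smallest p required. *LOC100536890* had 57.8, 40.8 and 43.3 CPM in the MHet pools, against 9.57, 8.81 and 10.9 CPM in the Het pools (log2 fold change 2.28 ± 0.14 SE, adjusted p = 1.51e-10). *si:dkey-258f14.3* was also higher (1.26 ± 0.11, adjusted p = 2.89e-08). It overlaps LOC100536890 in RefSeq's annotation of another assembly, GRCz12tu, so their reads may not be independent. These genes kept their call without any 1 of the 6 pools.

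The DEGs with the largest fold changes were nearly on or off. XLOC_018082 had 148, 118 and 158 counts in the MHet pools, against 1, 0 and 0 in the Het pools, a ratio of 390.5 after scaling with a 95% exact counting interval of 69.7 to 15458. *si:dkeyp-82b4.2* had 38, 40 and 42 counts in MHet and 0 in each Het pool, which with 3 counts over the 3 Het pools as the floor is at least 36.8-fold higher. By the same rule, CR388079.3 (29, 24 and 34 counts in MHet, 0 in Het) was at least 26.7-fold higher. *zgc:174275* (21, 19 and 25 counts in MHet, 0 in Het) was at least 20.0-fold and LOC110439428 (38, 12 and 11 counts in MHet, 0 in Het) at least 18.7-fold higher. Thus these 5 genes were near the floor in all 3 Het pools. In the other direction CU927934.3 had 0 counts in each MHet pool, against 13, 6 and 12 in the Het pools, at least 11.2-fold lower. *si:dkey-21o22.2* had 2, 1 and 7 counts in MHet, against 142, 85 and 92 in Het, and *cnn1a*, a calponin gene, had 0, 4 and 5 counts in MHet, against 38, 60 and 38 in Het. *si:dkey-203a12.9* had 0, 3 and 0 counts in MHet, against 22, 38 and 18 in Het (Het over MHet ratio 28.2, interval 9.31 to 139.9), and AL845330.1 had 2, 0 and 1 counts in MHet, against 14, 21 and 10 in Het (ratio 16.3, interval 5.23 to 81.9). Low counts were also seen in ZKO pools, from the same crosses as Het. There *si:dkey-203a12.9* had 0, 5 and 7 counts (33, 36 and 9 in WT) and CU927934.3 had 1, 2 and 6 (10, 11 and 3 in WT). All 10 genes stayed below 8 CPM in all 6 pools. Of these genes, calls were lost for *LOC110439428* without MHet pool 1, *CU927934.3* without MHet pool 1, *cnn1a* without any MHet pool or Het pool 2, *si:dkey-203a12.9* without MHet pool 1 or 3 or Het pool 1 or 2 and *AL845330.1* without MHet pool 2 or 3 or Het pool 2.

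To ask whether larvae with another own genotype differed in the same way between these crosses, MZKO was compared with ZKO, both *pomgnt2* -/-, in pools that MHet against Het did not use. This comparison gave 769 higher and 622 lower DEGs, 5.60% of the genes tested (3.10% higher and 2.50% lower). Both comparisons called 236 higher and 229 lower genes in the same direction, and 0 in opposite directions. The shared genes were 51.1% of the higher and 47.8% of the lower DEGs of MHet against Het, and 30.7% and 36.8% of those of MZKO against ZKO. Of the DEGs of MHet against Het, 451 of 462 higher and 454 of 479 lower genes had the same sign in MZKO against ZKO. The share with the same sign among all genes tested was not counted, so how far DEGs exceed other genes is not known. All 6 pools from ZKO females lay outside the range of the 9 pools from Het females in 300 higher and 323 lower DEGs, against 7.80% of all genes tested. The MHet and Het pools that chose these DEGs are part of this count, so its excess over all genes follows in part from that choice. MZKO against ZKO had the cross in common with MHet against Het, so genotype of the mother and cross cannot be told apart here either.

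Of the 45 clock genes, MZKO against ZKO called 4 higher and 18 lower, and 20 of them were called in both comparisons in the same direction. *nr1d1* averaged 15.5 ± 1.29 CPM in MZKO, against 132 ± 5.32 CPM in ZKO, with a log2 fold change of -3.08 ± 0.11 SE (adjusted p = 5.49e-15). *cry1bb* averaged 149.8 ± 16.9 CPM in MZKO and 48.1 ± 4.23 CPM in ZKO, with 1.64 ± 0.10 SE (adjusted p = 2.96e-11). WT pools averaged 135 ± 3.93 CPM for *nr1d1* and 41.6 ± 3.41 CPM for *cry1bb* (SD, n = 3 in each group). The levels of both genes in WT were thus near those of Het and ZKO. Lens crystallins gave 1 higher and 38 lower DEGs in MZKO against ZKO (median -1.02), against 0 higher and 10 lower in MHet against Het (median -0.54), and ionocyte transporters gave 13 higher and 2 lower. Proteasome subunits gave 0 higher and 0 lower (median 0.06), against 3 higher and 0 lower in MHet against Het (median 0.41). These counts set the comparisons side by side and are no test of a difference between them.

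The difference between the comparisons was tested by the interaction of cross and own genotype, which called 77 genes, 0.310% of those tested. The interaction, MHet against Het minus MZKO against ZKO on the log2 scale, was positive for 30 of them and negative for 47, whichever change was larger in size. Only 7 of these 77 genes were DEGs of MHet against Het, 40 were DEGs of MZKO against ZKO, 0 were both, and 30 were neither. None of the 45 clock genes was called. *qdpra* averaged 26.5 ± 1.46 CPM in MHet and 60.0 ± 1.04 CPM in Het, and 45.3 ± 7.25 CPM in MZKO and 44.5 ± 2.77 CPM in ZKO, an interaction of -1.20 ± 0.14 SE (adjusted p = 5.25e-05). *oca2* averaged 11.4 ± 1.25 CPM in MHet and 22.0 ± 2.60 CPM in Het, and 18.8 ± 1.33 CPM in MZKO and 18.6 ± 3.31 CPM in ZKO, an interaction of -0.96 ± 0.18 SE (adjusted p = 0.00739). *foxq1a* averaged 32.3 ± 2.53 CPM in MHet and 13.5 ± 0.955 CPM in Het, and 22.7 ± 3.64 CPM in MZKO and 21.9 ± 4.39 CPM in ZKO, an interaction of 1.204 ± 0.21 SE (adjusted p = 0.00505). For *qdpra* and *oca2* the MHet pools were lower than those of the other 4 groups. The other 4 genes, named because they completed the 7, were *tyr*, tyrosinase of the melanin pathway (-0.88 in MHet against Het and 0.45 in MZKO against ZKO), the ubiquitin gene *ubb* (0.89 and 0.09), the calponin gene *cnn1b* (-0.83 and 0.24) and *si:ch211-181d7.3* (-0.84 and 0.28). The interaction rests on 12 pools, and leaving out single pools gave counts from 33 genes without Het pool 3 to 84 without Het pool 2.

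**Figure D5:**
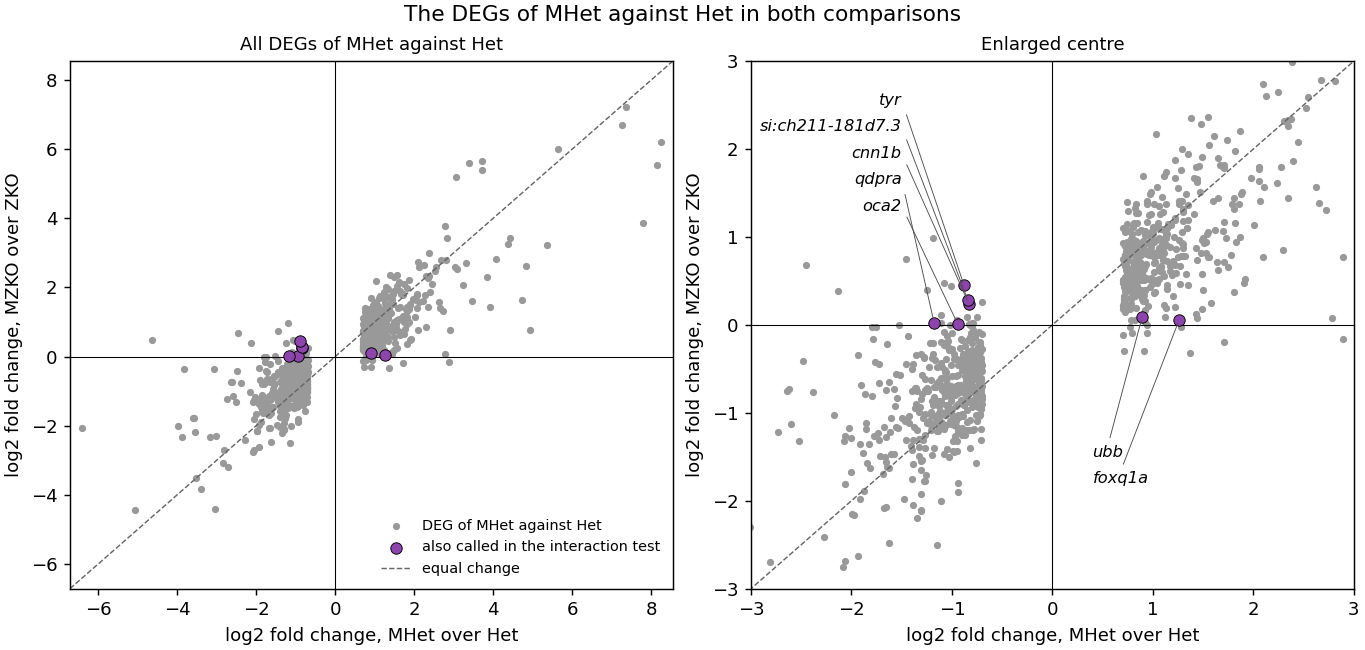
Log2 fold change of MZKO over ZKO (y axis) against that of MHet over Het (x axis) for the 941 DEGs of MHet against Het, over the full range (left) and enlarged around 0 (right), with 1 point per gene, the 7 genes also called in the interaction test in purple and a dashed line of equal change. Most points lie in the lower left and upper right of the panels, and the 7 purple points lie close to 0 on the y axis. Fitted values of genes without counts in 1 group depend on the prior count.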

How the data were processed

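RNA was sequenced from 21 pools of whole larvae, 15 of them at 5 dpf, with polyA selection and a directional dUTP library. The authors trimmed 10 bases, kept reads above Phred 20, aligned them with HISAT2 to GRCz11, and deposited the counts that featureCounts gave per gene of the Lawson annotation, with no normalization. Whether reads were counted by strand, and how reads with several alignments were treated, is not given in the sources used here. The tools named are from the study's methods and the submitters' processing notes.

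Of 36351 genes, 24846 passed edgeR's filterByExpr, and all 5 groups at 5 dpf were fitted together (R 4.3.3, edgeR 4.0.16, TMM factors, robust quasi-likelihood) with contrasts for MHet against Het, MZKO against ZKO, their difference, and Het against WT. DEGs had a Benjamini-Hochberg adjusted p under 0.01 over all genes tested and an absolute log2 fold change over 0.7, and the standard error was derived from the F statistic. Alternatives were DESeq2 1.42.0, other scaling factors, filters, thresholds, samples in the fit, a replicate block and each pool left out. Exact 95% intervals and the floor of 3 counts cover counting error only. Named genes were the 12 higher and 12 lower DEGs of smallest p with pools that did not overlap, the 5 highest and 5 lowest fold changes of such DEGs, all tested clock genes, up to 4 DEGs of smallest p per list, and a few genes picked by name. The members and lists were chosen with earlier results of these data known. In data simulated for MHet against Het with 200 changed genes, edgeR called 123 of them at 2-fold and 173 at 4-fold, each with 1 call among the unchanged genes (24525 and 24506 genes tested). DESeq2 called 130 and 175 of them, with 2 and 7 calls among the unchanged genes. Simulated pools were drawn independently and without clutch effects, so these counts do not cover differences between clutches. Promoter motifs were not analysed here. Some genes are not reported here. No per-sample column of another series was present among those used (0 columns left out). Python 3.11.15 with pandas 2.3.3, numpy 2.4.6, scipy 1.17.1 and matplotlib 3.10.9 made summaries and plots. Replicate numbers did not pair the samples.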

Additional observations from a re-analysis of the deposited data

Results flagged for a closer look

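Among the genes named here, 10 had effects that differed between MHet against Het and MZKO against ZKO by the interaction test of edgeR with Benjamini-Hochberg adjustment (log2 scale, n = 3 pools per group). Of the pigment genes, *qdpra* had -1.18 ± 0.10 SE in MHet against Het and 0.03 ± 0.10 SE in MZKO against ZKO, a difference of -1.20 (adjusted p = 5.25e-05), and *oca2* had -0.94 ± 0.13 SE in MHet against Het and 0.02 ± 0.13 SE in MZKO against ZKO, a difference of -0.96 (adjusted p = 0.00739). *foxq1a*, a forkhead factor gene of the aryl hydrocarbon receptor list, had 1.26 ± 0.15 SE in MHet against Het and 0.06 ± 0.15 SE in MZKO against ZKO, a difference of 1.204 (adjusted p = 0.00505). *tyr*, the tyrosinase gene, had -0.88 ± 0.17 SE in MHet against Het and 0.45 ± 0.17 SE in MZKO against ZKO, a difference of -1.33 (adjusted p = 0.00771). *ubb*, a ubiquitin gene, had 0.89 ± 0.10 SE in MHet against Het and 0.09 ± 0.10 SE in MZKO against ZKO, a difference of 0.80 (adjusted p = 0.00324). *cnn1b*, a calponin gene, had -0.83 ± 0.14 SE in MHet against Het and 0.24 ± 0.14 SE in MZKO against ZKO, a difference of -1.07 (adjusted p = 0.00664). *si:ch211-181d7.3* had -0.84 ± 0.15 SE in MHet against Het and 0.28 ± 0.15 SE in MZKO against ZKO, a difference of -1.12 (adjusted p = 0.00739). The other 3 were no DEGs in MHet against Het. *myl4*, a cardiac myosin light chain gene, had -0.63 ± 0.14 SE in MHet against Het and 0.54 ± 0.14 SE in MZKO against ZKO, a difference of -1.17 (adjusted p = 0.00324). *pmp22b*, a myelin protein gene, had -0.57 ± 0.10 SE in MHet against Het and 0.21 ± 0.10 SE in MZKO against ZKO, a difference of -0.78 (adjusted p = 0.00388). *sgcd*, which encodes a sarcoglycan of the dystrophin complex, had -0.54 ± 0.11 SE in MHet against Het and 0.26 ± 0.11 SE in MZKO against ZKO, a difference of -0.80 (adjusted p = 0.00664). In each of the 10 genes the MHet against Het change was the larger in size. DEGs of that comparison were favoured when genes were named, so this does not describe interaction genes in general. Of all 77 interaction genes, 40 were DEGs of MZKO against ZKO and 7 were DEGs of MHet against Het.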

How the results depend on the processing

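The numbers of DEGs in MHet against Het stayed within 1.5 times of 941 with DESeq2 (1087), DESeq2 size factors (941), upper quartile factors (940), all genes kept (961), a stricter filter of 10 counts in each pool (874), only the 6 pools compared (1085), all 21 pools in the fit (762) and WT pool 3 left out (1028). At an adjusted p under 0.05 they came to 1462 (697 higher and 765 lower), and without the fold change threshold to 2191 (1049 higher and 1142 lower), where MZKO against ZKO gave 3345. The interaction gave 127 genes without the filter, 197 with DESeq2, 123 with only the pools compared, 43 with all 21 pools, 133 without WT pool 3 and 273 at an adjusted p under 0.05, against 77, and the cause was not tested. Leaving out each pool in turn gave 647 to 765 DEGs in MHet against Het (310 to 369 higher and 337 to 404 lower), 1098 to 1277 in MZKO against ZKO and 33 to 84 in the interaction, with fewer samples in each fit. Of 201 genes named by rule, of which the stricter filter kept 185, 0 reversed under any alternative, and 91 of 139 named DEGs were called in all 6 fits without 1 pool. Counts and medians of the gene lists moved more: of 118 such values, 14 to 22 moved when 1 pool was left out, 22 of them without MHet pool 1. Replicate numbers share no label that pairs pools, and deviations of same-numbered MHet and Het pools correlated at 0.030, -0.051 and 0.033 across genes, so they were not paired. With the replicate block 898 genes were DEGs, 3 named genes lost their call and 1 gained one. Depth limits genes below 1 CPM most, and 3 pools of unknown clutch per group bound every statement to these crosses.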
